A study of Drosophila melanogaster with 3 samples.

Results

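Some nuclear genes for mitochondrial proteins in Drosophila melanogaster come as pairs, with 1 copy used in most tissues (called here the somatic paralog) and a copy known mainly from the testis. The 5 pairs described here, 10 genes of the 13990 listed, encode a cytochrome c oxidase subunit (levy and CG30093), cytochrome c (Cyt-c-p and Cyt-c-d), an ATP synthase subunit (ATPsynG and CG7211), an import channel subunit (Tim17b and Tim17a1) and mitofusin (Marf and fzo). They were chosen by symbol, with their values in all 3 libraries known, so their levels and ratios are given as descriptions and without tests. Of the 10, 9 were found in both deposited tables under the symbols used to choose them. Tim17b was found as CG40451, a synonym of it in the RefSeq gene table. The gene called ATPsynG here (FBgn0010612) was chosen, and is listed in the deposited tables, under an older symbol, that of a lethal allele. Current symbols are COX6AL for CG30093 and ATPsynGL for CG7211.

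The study asked how depletion of Aac11, the fly ortholog of mammalian API5, changes RNA in late larvae. There was 1 library per group. The control library (Act) carried the driver Actin5C-Gal4, active in most tissues, without a hairpin, the RNAi library (Act-Aac11-IR) added a UAS hairpin against Aac11, and the Yki library (enGFP+Yki+Aac11-IR) names engrailed-GFP, Yorkie and the same hairpin. The larvae were at the wandering stage, picked by GFP signal and pooled, with 10 to 20 animals for each Act genotype; neither their sex nor, for the Yki library, how many were pooled is stated in the sources. The labels call the source wing disc cells, whereas the protocol describes ground larvae.

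Without replicates, every difference describes these libraries only, and the 95% intervals cover counting error alone. Levels are FPKM, fragments per kilobase of transcript scaled to library size. Read back from the FPKM steps, the control library had about 6060000 fragments, the RNAi library 31140000 and the Yki library 17840000. The Yki table was normalized separately, so no level ratio was formed between it and the others. Ratios of genes within a library can be set side by side. The Yki library also differed in genotype (yki at 4153 FPKM there and 64.3 FPKM in the control) and had no matching control library. Genotype and tissue content cannot be told apart in its shares. Aac11 itself measured 150 FPKM (control), 78.1 FPKM (RNAi) and 117 FPKM (Yki).

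Marker genes showed which tissues the libraries held. The 23 testis markers found summed to 6773 FPKM in the control library, to 1763 FPKM with RNAi and to 19.0 FPKM in the Yki library, where 8 of them were listed at 0, beside 14.3% of all kept genes. The 8 fat body markers summed to 13651, 9709 and 29.1 FPKM in the same order, while their median was 538, 667 and 2.81 FPKM, since Lsp2 carried most of the sum (8453 and 5243 FPKM in the Act libraries) and 3 of the 8 were higher with RNAi. The 12 muscle markers summed to 739.7, 531 and 23.9 FPKM, with medians of 47.3, 33.9 and 0.602 FPKM. With RNAi 9 of the 12 were lower and 3 higher, among the latter Mf (9.43 and 25.4 FPKM in the Act libraries). The 10 wing disc markers summed to 192, 254 and 576 FPKM. Defining markers of testis, fat body and muscle were therefore plentiful in both Act libraries and low in the Yki library. The male dosage compensation RNA roX1 measured 161, 37.0 and 179 FPKM.

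Mitochondria make ATP by passing electrons along the respiratory chain, with cytochrome c as the mobile carrier and cytochrome c oxidase (complex IV) as the last step, and ATP synthase then uses the proton gradient. Most of these proteins are encoded in the nucleus and enter through translocases such as the TIM23 complex, which contains Tim17. In the fly testis, mitochondria of young spermatids fuse into a large body, the nebenkern, and later elongate along the sperm tail. Spermatocytes are already present in the testes of late larval males.

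The testis paralogs were 3.96-fold to 5.48-fold lower in the RNAi library, and the somatic paralogs differed far less. All 5 testis paralogs were at least 2-fold lower, measuring 18.2% to 25.3% of the control, beside 17.0% of the 11330 kept genes, those whose mean over the Act libraries reached 1 FPKM. The 5 somatic paralogs measured 71.6% to 104% of the control, and 0 of them were past 2-fold either way, where 3.70% of all kept genes were at least 2-fold higher. The log2 ratio, log2 of RNAi FPKM + 1 over control FPKM + 1, had a median of -2.20 for testis and -0.05 for somatic paralogs, and -0.03 over all kept genes. Because the pairs were picked with these values in view, the counts are not evidence about mitochondrial genes at large. In whole-animal RNA, fewer cells of a type and less RNA per cell cannot be told apart.

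**Figure D1:**
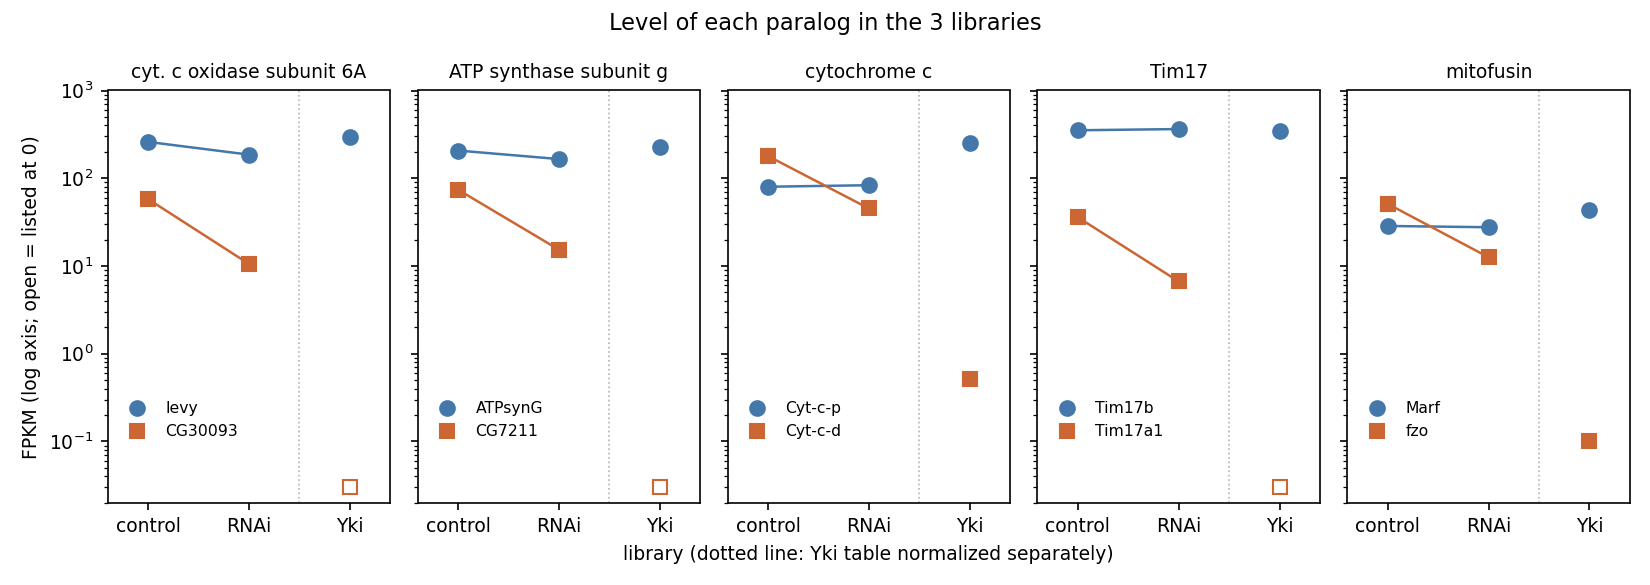
FPKM (log axis) of the somatic (circles) and testis (squares) paralog of each pair in the control, RNAi and Yki libraries, 1 library each; open symbols at the bottom mark genes listed at 0. The squares drop from control to RNAi in all 5 pairs and lie below 1 FPKM or at 0 in the Yki library, while the circles stay between 27.7 and 364 FPKM.

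The gene structures set several testis copies apart from their partners. In the Ensembl annotation of the Release 6 genome (dm6 coordinates), CG30093, Tim17a1 and fzo each have 1 exon, whereas levy has 2, Tim17b 3 and Marf 8 or 9, depending on the transcript. CG7211 and Cyt-c-d have 2 exons each, with 2 to 3 in ATPsynG and 1 to 2 in Cyt-c-p. Transcripts within a pair were of like length for levy (490 to 593 nt) and CG30093 (540 nt), and longer in Marf (3444 to 3617 nt) than in fzo (2391 nt). Tim17b spans 10452 nt of chromosome 3R and Tim17a1 1014 nt.

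**Figure D2:**
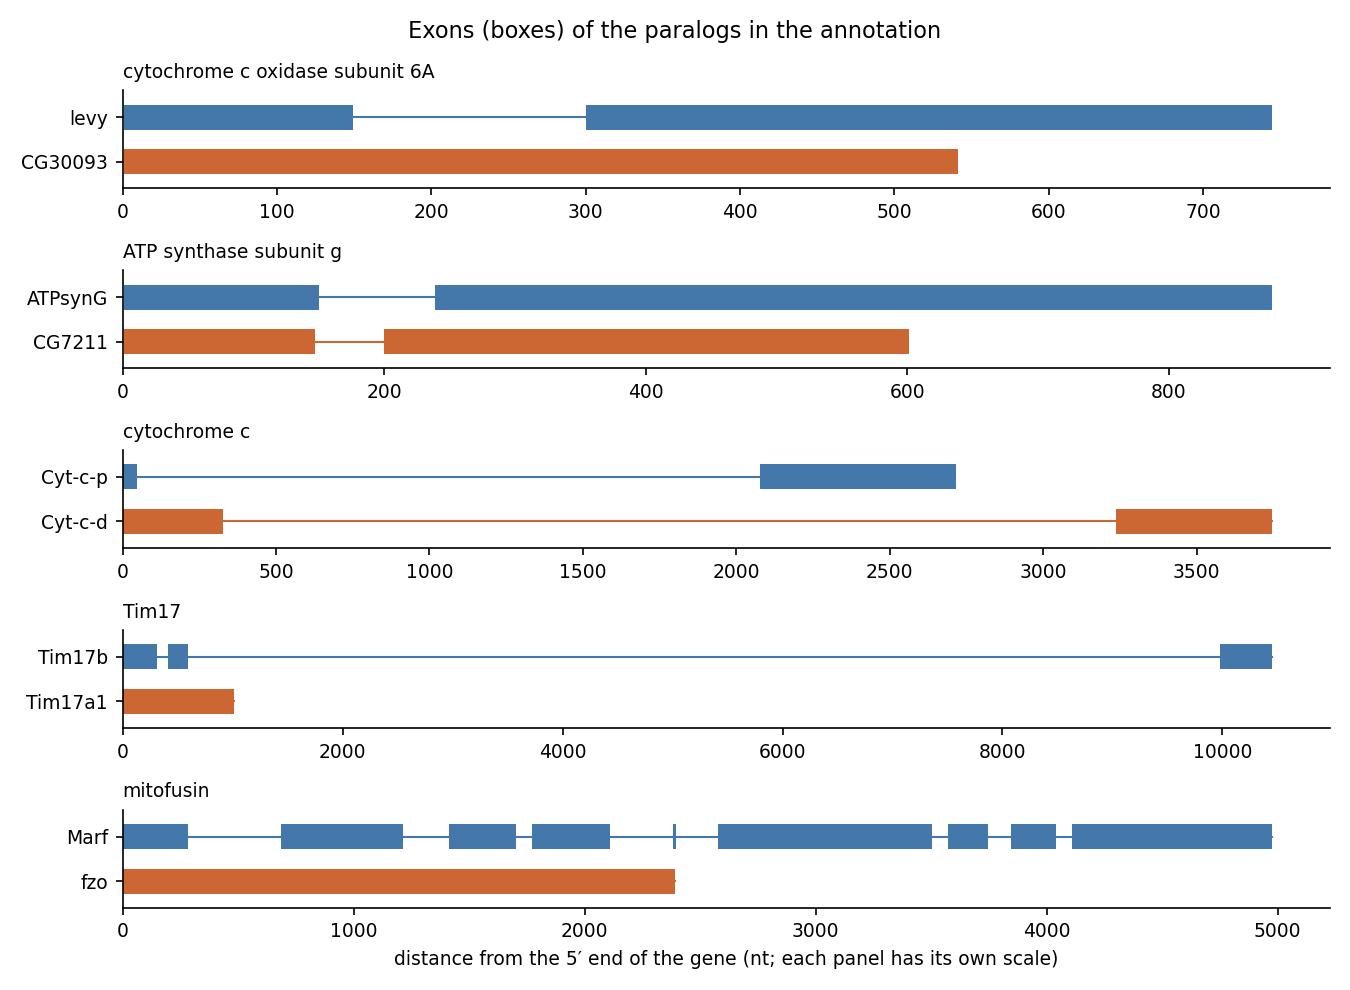
Exons of all annotated transcripts (boxes) and introns (lines) of each pair, in nt from the 5′ end of the gene, with the somatic paralog above the testis paralog and a separate scale per panel. CG30093, Tim17a1 and fzo are single blocks, while the 2713 nt of Cyt-c-p and the 3745 nt of Cyt-c-d are mostly intron.

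Cytochrome c showed the largest loss of pair RNA. Cyt-c-p (chromosome 2L, 16719932 to 16722644, plus strand) encodes the respiratory form. Cyt-c-d (16715891 to 16719635, same strand) lies 296 nt upstream of it, and its product is required for caspase activation when spermatids become individual cells. Cyt-c-d measured 179 FPKM in the control library and 45.3 FPKM with RNAi. In the Yki library it was at 0.510 FPKM, from about 5 fragments. Cyt-c-p measured 80.0, 83.3 and 252 FPKM in the same order. The testis form was thus the more abundant of the pair in the control and the less abundant in the RNAi library.

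Without a pseudocount, the log2 ratio of RNAi over control was -1.98 for Cyt-c-d (95% interval -2.14 to -1.83) and 0.06 for Cyt-c-p (-0.16 to 0.28). Cyt-c-d made up 69.1% of the pair's summed FPKM in the control (65.6% to 72.5%), 35.2% in the RNAi library (33.2% to 37.3%) and 0.202% in the Yki library (0.0655% to 0.470%). The sum of both genes went from 259 to 129 FPKM, 49.6% of the control. The fall of the sum was 131 FPKM, and that of Cyt-c-d alone 134 FPKM. The first exon of Cyt-c-d overlaps 305 nt of exon of CG31808 on the other strand, which measured 9.83, 7.27 and 2.31 FPKM. Whether counting used the strand is not stated, so reads from this overlap cannot be assigned.

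The mitofusins behaved alike. Mitofusins are outer membrane GTPases that fuse mitochondria, and fzo (fuzzy onions; chromosome 3R, 23201644 to 23204034, minus strand) is the form needed for the nebenkern, while Marf (chromosome X, 6365949 to 6370924, plus strand) works in most tissues. In the control, fzo measured 51.0 FPKM and Marf 28.6 FPKM. In the RNAi library, fzo measured 12.6 FPKM and Marf 27.7 FPKM. The Yki library held 0.102 FPKM of fzo, from about 4 fragments, and 43.0 FPKM of Marf.

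The log2 ratio without a pseudocount was -2.02 for fzo (95% interval -2.17 to -1.87) and -0.05 for Marf (-0.18 to 0.09). The share of fzo was 64.1% in the control (61.4% to 66.7%), 31.3% in the RNAi library (29.6% to 32.9%) and 0.237% in the Yki library (0.0645% to 0.605%). The pair's sum went from 79.6 to 40.2 FPKM, of which fzo lost 38.5 FPKM and Marf 0.940 FPKM. fzo lies within the bounds of cnc on the same strand without sharing exon bases. cnc measured 37.4 and 45.4 FPKM in the Act libraries and 35.0 FPKM in the Yki library, where fzo was near 0. Marf shares 347 nt of exon with the noncoding gene CR44816 on the other strand.

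In the cytochrome c oxidase pair the somatic gene remained the larger source. levy (chromosome 2R, 23548239 to 23548982, plus strand) encodes subunit 6A of complex IV, and CG30093 (chromosome 2R, 15944028 to 15944567, plus strand) a like protein. levy measured 259 FPKM (control), 186 FPKM (RNAi) and 293 FPKM (Yki). CG30093 measured 57.8 and 10.6 FPKM in the Act libraries and was listed at 0 in the Yki library. CG30093 lies within Cyp4aa1 on the same strand without sharing exon bases, and Cyp4aa1 measured 0.696, 0.839 and 0 FPKM.

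The log2 ratio without a pseudocount was -2.45 for CG30093 (95% interval -2.84 to -2.07) and -0.48 for levy (-0.63 to -0.33). levy had the lowest log2 ratio of the 5 somatic paralogs as deposited, and its interval lay below 0. With a pseudocount of 1 FPKM it was -0.24 once upper quartiles of the Act libraries were set equal. It was -0.11 with the median of genes of like transcript length subtracted, where Marf was lower at -0.16. Both levy values lie above its counting interval. The share of CG30093 was 18.2% in the control (15.3% to 21.5%) and 5.37% in the RNAi library (4.44% to 6.44%). Here both genes contributed to the fall of the sum from 317 to 196 FPKM, with 73.7 FPKM from levy and 47.3 FPKM from CG30093. A further paralog, CG14077 (current symbol COX6AL2), measured 26.1 and 8.33 FPKM and was listed at 0 in the Yki library.

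The ATP synthase pair followed the same order. Subunit g sits in the membrane part of the enzyme, and in yeast it is needed for ATP synthase dimers. ATPsynG (chromosome 2L, 10975522 to 10976399, minus strand) measured 207 FPKM (control), 165 FPKM (RNAi) and 226 FPKM (Yki). CG7211 (chromosome 2L, 7747275 to 7747874, plus strand) measured 74.1 and 15.4 FPKM and was listed at 0 in the Yki library. Their log2 ratios without a pseudocount were -0.32 (95% interval -0.49 to -0.15) and -2.27 (-2.60 to -1.94). The share of CG7211 was 26.4% in the control (22.7% to 30.3%) and 8.50% in the RNAi library (7.29% to 9.84%).

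Tim17 had the smallest testis share and a pair sum close to the control. Tim17b (chromosome 3R, 3734855 to 3745306, plus strand) measured 352 FPKM (control), 364 FPKM (RNAi) and 346 FPKM (Yki). Tim17a1 (chromosome 3R, 12363667 to 12364680, minus strand) measured 35.9 and 6.66 FPKM and was listed at 0 in the Yki library. Tim17b was the highest of the 10 genes in each library. The log2 ratio without a pseudocount was 0.05 for Tim17b (95% interval -0.03 to 0.13) and -2.43 for Tim17a1 (-2.77 to -2.09). The share of Tim17a1 was 9.26% in the control (7.89% to 10.8%) and 1.80% in the RNAi library (1.52% to 2.11%), and the sum went from 388 to 370.2 FPKM.

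Tim17a1 is 1 of 4 further Tim17 genes, and the group as a whole was a large source of Tim17 RNA. Tim17b2 measured 112 and 24.3 FPKM in the Act libraries, Tim17b1 44.4 and 11.7 FPKM, and Tim17a2 39.5 and 11.8 FPKM. Tim17b1 and Tim17b2 were listed at 0 in the Yki library and Tim17a2 measured 0.215 FPKM. Together with Tim17a1 these genes summed to 232 FPKM in the control, 39.7% of the family's total, and to 54.4 FPKM or 13.0% in the RNAi library. Their share of the family's FPKM in the Yki library was 0.0622%.

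**Figure D3:**
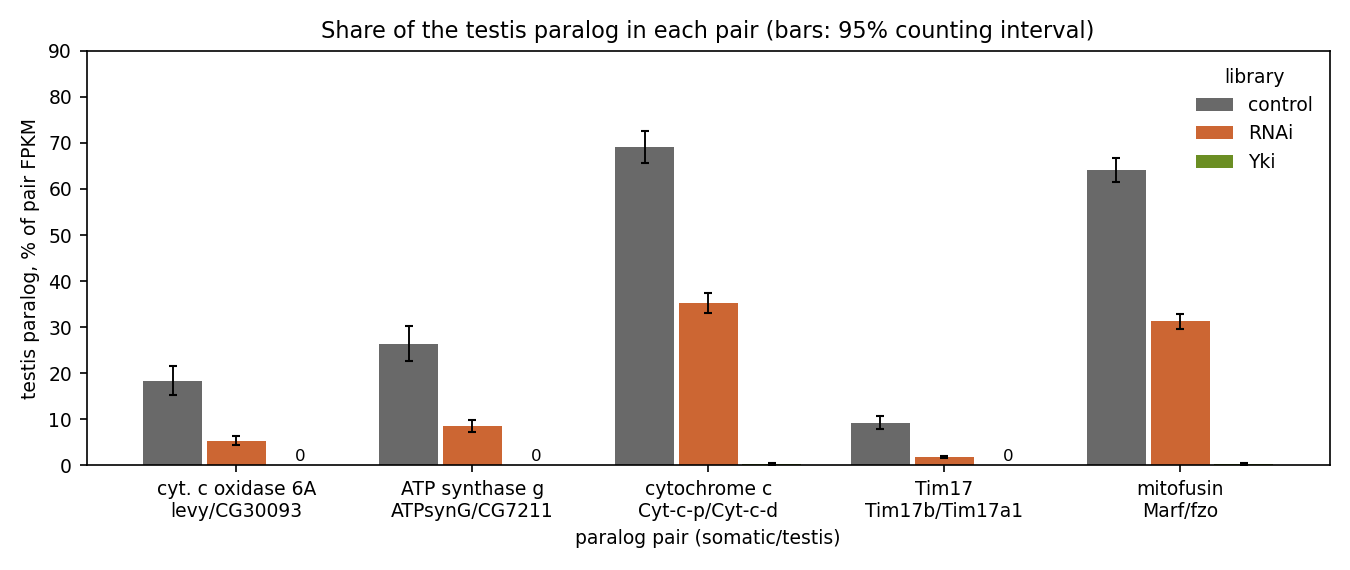
Testis paralog as a percentage of the summed FPKM of its pair in the control, RNAi and Yki libraries, with 95% counting intervals; a 0 marks a testis paralog listed at 0. The share drops from control to RNAi in all 5 pairs, most in points for cytochrome c (69.1% to 35.2%) and mitofusin (64.1% to 31.3%).

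Relative to its partner, each testis paralog was lower in the RNAi library by a similar factor in 4 of the 5 pairs. The difference of the 2 log2 ratios, which does not depend on how the libraries were scaled, was -1.97 for cytochrome c oxidase (95% interval -2.38 to -1.57) and -1.95 for ATP synthase (-2.31 to -1.59). It was -2.04 for cytochrome c (-2.30 to -1.78) and -1.97 for mitofusin (-2.17 to -1.78). For Tim17 it was -2.48 (-2.82 to -2.14), a 5.57-fold difference beside 3.86-fold to 4.12-fold in the others. The interval of Tim17 overlapped those of the other 4 pairs.

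The log2 ratios of 3 testis paralogs lay at the lower end of those of the testis markers, and those of fzo and Cyt-c-d lay nearer the marker median. The kept testis markers had quartiles of -1.99, -1.92 and -1.82 without a pseudocount, and 21 of 23 were at least 2-fold lower, beside 17.0% of all kept genes. CG30093 and Tim17a1 were below all 23 markers, CG7211 was below 22, and 4 markers were below fzo and 6 below Cyt-c-d. The marker median lay inside the counting intervals of Cyt-c-d and fzo and above those of the other 3. betaTub85D, the testis beta-tubulin, measured 466 and 123 FPKM. Of 6 kept early germline markers 1 was at least 2-fold lower, a share near the 17.0% of all kept genes. It was bgcn, at 8.32 and 2.62 FPKM. The median log2 ratio of the 6 was -0.71 without a pseudocount and -0.42 with 1 FPKM added. In the Yki library 4 of the 6 were under 1 FPKM, beside 33.2% of all kept genes. There ovo measured 39.8 FPKM and stwl 13.5 FPKM, so their ratios do not describe the germline alone. The part of testis content or sex mix in the differences between the Act libraries was not tested, and roX1 was lower in the same library.

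The order of the 10 levels changed between the Act libraries. In the control it ran from Marf and Tim17a1 through fzo, CG30093, CG7211, Cyt-c-p, Cyt-c-d, ATPsynG and levy to Tim17b. Counting intervals of Marf (26.3 to 31.1 FPKM) and Tim17a1 (30.4 to 42.2) overlapped. So did those of fzo (47.3 to 55.0 FPKM) and CG30093 (47.8 to 69.4), of CG30093 and CG7211 (62.7 to 86.9), of CG7211 and Cyt-c-p (69.5 to 91.7), and of Cyt-c-d (165 to 194) and ATPsynG (185 to 230.2). In the RNAi library the lowest 4 were Tim17a1, CG30093, fzo and CG7211, all testis paralogs. In the Yki library all 5 testis paralogs were under 1 FPKM, as were 33.2% of all kept genes, and 3 were listed at 0, as were 14.3%. The 5 somatic paralogs there ranged from 43.0 to 346 FPKM.

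A wider list of 31 paralogs of mitochondrial genes, drawn up from gene names with testis results of these data known, gave the same picture with 1 exception. Past 2-fold with RNAi were 30 on the lower and 0 on the higher side, beside 17.0% and 3.70% of all kept genes, and the median log2 ratio was -1.91. Of the 25 partners found, which include levy and Tim17b, 0 were past 2-fold either way and their median was -0.26, with Scsalpha1 nearest to 0 at 182 and 183 FPKM. The largest falls by log2 ratio were of CG10748, paired with the malate dehydrogenase gene Mdh2 (26.1 to 4.62 FPKM), Porin2, a paralog of the outer membrane channel gene porin (137 to 29.7 FPKM), Tim17b2 and Scsalpha2 (79.7 to 17.3 FPKM). The highest paralog in the control was CG10396 (current symbol COX4L), at 258 and 67.6 FPKM and at 0.857 FPKM in the Yki library, while its partner COX4 measured 279 and 222 FPKM. The exception was CG34172 (current symbol COX7AL2), at 11.1 and 11.5 FPKM and listed at 0 in the Yki library.

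In 30 of these pairs both genes were found. The median share of the paralog was 26.0% in the control library, 10.1% with RNAi and 0.0281% in the Yki library. The paralog held over 50% of the pair in 2 pairs of the control, and in 0 pairs of the other libraries. These were CG14740, paired with the citrate synthase gene kdn, at 67.6% and then 36.0%, and the outer membrane import gene tomboy40, paired with Tom40, at 64.8% and then 34.2%. In the Yki library 30 of 31 paralogs were under 1 FPKM, beside 33.2% of all kept genes, and the highest was CG11043 (current symbol COX5BL) at 1.16 FPKM.

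**Figure D4:**
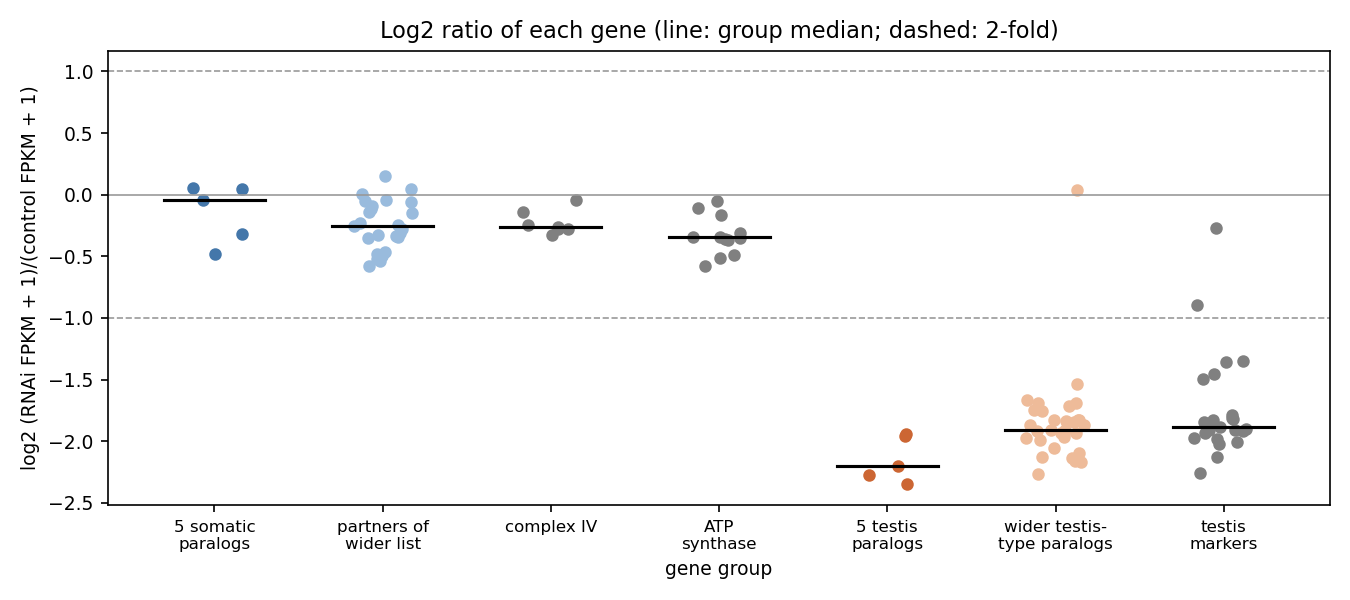
Log2 ratio of RNAi over control (each FPKM + 1) for every gene of 7 groups, with the group median as a line and 2-fold as dashed lines. The 5 testis paralogs lie between -2.35 and -1.94, with CG30093 and Tim17a1 below every wider paralog and testis marker on this measure. Without the added 1 FPKM, the wider paralog CG10748 (-2.49) was below both (-2.45 and -2.43). The 5 somatic paralogs lie between -0.48 and 0.06, in the range that the partners of the wider list cover.

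Other subunits of the same complexes also had small negative log2 ratios. All 7 further complex IV subunits had negative log2 ratios, 0 were past 2-fold and the median was -0.27, from COX7A (436 and 424 FPKM) to COX4, so that levy at -0.48 was below all 7. All 12 further ATP synthase subunits were negative as well, with 0 past 2-fold and a median of -0.35, near the -0.32 of ATPsynG. With upper quartiles of the Act libraries set equal, 5 of the 7 and 9 of the 12 were still negative, with medians of -0.03 and -0.11. With the median of genes of like transcript length subtracted, levy was at -0.11 and ATPsynG at 0.04. That setting was not applied to the further subunits, so the part of transcript length in their small ratios was not tested. ATPsyn-beta, the catalytic subunit gene, measured 605 and 583 FPKM and ATPsyn-b 277 and 185 FPKM.

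Among 18 import genes found besides the pair, 8 were at least 2-fold lower, beside 17.0% of all kept genes, 0 were higher and the median was -0.85. Of these 8, 5 are in the wider paralog list, among them tomboy20 (144 to 37.6 FPKM), a paralog of the receptor gene Tom20, and tomboy40 (85.1 to 21.6 FPKM), and the others were Tim13 (73.2 to 23.8 FPKM), the receptor gene Tom70 (84.2 to 33.9 FPKM) and CG11779 (56.6 to 23.2 FPKM). Tim13 was listed at 0 in the Yki library, whereas Tom70 measured 41.3 and CG11779 23.9 FPKM there. Tom40, the channel of the outer membrane, measured 46.2 and 41.6 FPKM.

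Of 11 fusion, fission and quality control genes besides Marf and fzo, 1 was at least 2-fold lower, which is below the 17.0% of all kept genes, and the median was -0.18. That gene was park, the Parkin ubiquitin ligase, at 19.2 and 8.59 FPKM; with equal upper quartiles 0 were past 2-fold and the median was 0.05. Opa1, which fuses inner membranes, measured 40.4 and 40.1 FPKM. Of 6 kept genes of the caspase pathway that acts with Cyt-c-d in spermatids, 1 was at least 2-fold lower, a share near the 17.0% of all kept genes, and the median was 0.36. That gene was soti, an inhibitor in that pathway, at 185 and 55.1 FPKM and listed at 0 in the Yki library. The other kept genes of this list measured 20.0 to 59.0 FPKM in the Yki library, where 21 of 23 testis markers were under 1 FPKM. Their ratios therefore do not describe spermatids alone. klhl10, also on the list, was listed at 0 in all 3 libraries and so was not kept. The initiator caspase gene Nc (Dronc) measured 110 and 184 FPKM, and Ark, the apoptosome gene, 20.4 and 24.9 FPKM.

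The genes nearest to each testis paralog were found by Euclidean distance over log2(FPKM + 1) in the 3 libraries. Nearest to CG30093 was CG32713, at 57.7, 10.4 and 0 FPKM (distance 0.0162). CG7211 was nearest to CG12126, at 76.1, 15.1 and 0 FPKM (0.0456), and Tim17a1 to primo-2, at 37.5, 6.36 and 0 FPKM (0.0832). Cyt-c-d was nearest to CG31802, at 167, 43.7 and 0.457 FPKM (0.128), and fzo to CG11697, at 52.4, 12.5 and 0.0774 FPKM (0.0507). The next in order were IM14 and CkIIbeta2 for CG30093, CG2291 and CG13244 for CG7211, CG9129 and CG8564 for Cyt-c-d, Tsp66A and ms(2)35Ci for Tim17a1, and CG34457 and CG17140 for fzo.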

How the data were processed

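The authors deposited FPKM values for 13990 genes. Per the submitters' processing notes the build was dm6 and the tools included Cuffdiff 2.2.1, TopHat2 2.0.12 and CASAVA 1.4, with no roles stated. Neither annotation nor strand setting is stated, and paralogs with similar sequence could exchange reads. In the Yki library CG30093, CG7211 and Tim17a1 were listed at 0 beside partners at 226 to 346 FPKM. Cyt-c-d and fzo measured 0.510 and 0.102 FPKM there, beside partners at 252 and 43.0 FPKM. Exchange of reads was not tested. Members and lists were chosen with earlier results of these data known. Genes were kept where the mean of the Act libraries reached 1 FPKM, and 2-fold was judged on log2 ratios with a pseudocount of 1 FPKM. Named genes were the members, Aac11, list members past 2-fold or nearest 0, and nearest genes. Other named genes were chosen after their values were seen.

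Depth was fitted from the FPKM steps of 4251 genes with 1 transcript over 1000 nt (Ensembl release 115). Their low values numbered 483 (control), 343 (RNAi) and 780 (Yki). At the fitted depth, 81.2%, 81.9% and 87.9% of these fell within 0.2 of a whole fragment. By chance 40% would do so at a depth not fitted to the same values, so the percentages describe the fit and do not test it. Fragments used the shortest transcript, and intervals are exact binomial for ratios and shares, exact Poisson for levels and a normal approximation for pair differences. Of the symbols, 98.2% matched RefSeq. Scripts ran in Python 3.11.15 and were tested on simulated data. Pseudocounts, filters, rescalings and transcript length were varied. No protein comparison was made, since no sequences were used here.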

Additional observations from a re-analysis of the deposited data

How the results depend on the processing

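All 5 testis paralogs were at least 2-fold lower, and 0 somatic paralogs past 2-fold, under each of 7 planned settings and with length bin medians subtracted, a setting chosen after seeing the data. Log2 ratios ranged from -2.44 to -1.60 for testis and from -0.48 to 0.43 for somatic paralogs. Marf turned positive under all 3 rescalings (0.01 to 0.18), and ATPsynG turned positive with length bin medians subtracted (0.04). Equal upper quartiles moved the median of all kept genes from -0.03 to 0.19, and equal sums moved it to 0.10. Of 80 values for single members, 23 left their counting interval. The 80 include the filter settings, which cannot change a member's ratio. All 15 pair differences and 20 shares stayed inside, but both had little room to move. Shares were varied by pseudocount only, and pair differences by pseudocount and transcript length only. For cytochrome c oxidase the length setting left the difference at -1.97, since both genes took the same correction. The wider list's count of paralogs at least 2-fold lower was 30 under every setting. Among all kept genes, 419 were at least 2-fold higher as deposited, 245 with a pseudocount of 5 FPKM and 663 with equal upper quartiles. No paired analysis was possible because each group has 1 library. Depth limits the values of Cyt-c-d and fzo in the Yki library, which rest on 5 and 4 fragments.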
